A study of Mus musculus with 24 samples.

Results

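The genes described here are 53 genes of lysosome biogenesis and autophagy: the transcription factors TFE3, TFEB and MITF with the folliculin and Rag proteins that act on them, lysosomal membrane and lumenal proteins, cathepsins, subunits of the proton pump, and the core autophagy machinery. They were taken by gene name from a table of 38215 genes, all 53 were found there, and all 53 passed the filter on low counts. They were measured by sequencing of polyadenylated RNA in long-term haematopoietic stem cells (LT-HSCs) of mouse bone marrow, in 24 libraries that form 4 groups of 6. The cells carried the Jak2V617F mutation of myeloproliferative neoplasms or were wild-type, and the mice had been given pegylated interferon alpha (pegIFN) or vehicle.

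Each mouse was a lethally irradiated C57BL/6J recipient with both congenic markers CD45.1 and CD45.2, and it received marrow from a Jak2fl-V617F/+, Tg(E2A-cre) donor and from a congenic Jak2+/+ donor, mixed in equal parts. Both genotypes therefore came from irradiated, transplanted recipients. The congenic markers serve to keep residual host cells apart, and how fully they did so was not measured here. Cre in the mutant donor is driven by the E2A promoter, and the number of donors was not given in the sources used here. Treatment was 600 ng of pegIFN under the skin once a week, 5 doses over 4 weeks, or its vehicle of phosphate-buffered saline with bovine serum albumin. LT-HSCs were sorted 48 h after the last dose as lineage-negative, Sca1+, cKit+, CD150+ and CD48- cells. The number in each library name was taken as the mouse, which gives 12 mice, 6 per treatment, each with one wild-type and one Jak2V617F library.

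Lysosomes are acidic organelles in which proteins, lipids and glycogen are broken down, and autophagy delivers cytoplasm and damaged organelles to them inside double-membraned vesicles. TFE3, TFEB and MITF switch on lysosomal and autophagy genes through a short promoter element, and they are held in the cytoplasm when the nutrient-sensing kinase mTORC1 is active at the lysosomal surface. Folliculin and its FNIP partners act on the Rag GTPases there, so that mTORC1 can phosphorylate these factors. In haematopoietic stem cells, autophagy and lysosomal activity are known for their part in clearing mitochondria and in keeping cells quiescent.

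Library totals ran from 24.6 to 39.7 M counts, and reads of the 53 genes made up 0.388 to 0.48% of each library. The 8 LT-HSC markers (Kit, Ly6a, Slamf1, Procr, Hlf, Mecom, Fgd5 and Hoxb5) were each above a mean of 1 CPM (read count scaled to library size) in every group, and 8 of 8 interferon-response genes rose with pegIFN in both genotypes. Summed granulocyte markers reached 231 to 889 CPM in wild-type vehicle, 118 to 576 in wild-type pegIFN, 271 to 2143 in Jak2V617F vehicle and 739 to 1290.0 in Jak2V617F pegIFN libraries. Monocyte and macrophage markers summed to 161 to 283, 81.0 to 201, 167 to 333 and 108 to 288 CPM in the same order, and no gene of these lists was at 0 in all libraries. The groups are bulk samples, so fewer cells of a type and less RNA per cell cannot be told apart. The 2 genotypes also differed in sex-linked genes: Xist was between 1801 and 3310.0 CPM in 11 wild-type libraries and between 3.00 and 110.1 CPM in 11 Jak2V617F libraries. The other 2 libraries stood between these ranges, wild-type vehicle replicate 4 at 599.8 CPM and Jak2V617F pegIFN replicate 1 at 653.9 CPM. Summed Y-linked genes were at 249.6 CPM in the former, above all Jak2V617F libraries (149.3 to 242.7 CPM), and at 149.3 CPM in the latter. In the other wild-type libraries they were at 20.2 to 75.7 CPM under vehicle and 2.17 to 22.7 CPM under pegIFN. Xist in the 11 Jak2V617F libraries was at 3.00 to 54.9 CPM under vehicle and 40.8 to 110.1 CPM under pegIFN. The part of these differences between treatments in the results was not tested. Results that rest on wild-type vehicle replicate 4 or Jak2V617F pegIFN replicate 1 are given with and without these 2 libraries.

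The element through which TFE3 and TFEB are known to act has the core CACGTG, and stretches of 6 of the 53 genes that hold it are printed here because the genes that carry it went in opposite directions with pegIFN. Start-site windows of 300 bases (250 before and 50 after the gene start) were taken from RefSeq on GRCm38.p6, where 44 of the 53 genes had an entry, with 54 windows in all. In Lamp1, a lysosomal membrane glycoprotein that rose with pegIFN, the 250 bases before the start (chr8:13158911-13159160, plus strand) hold the core 4 times. In Atg7, the enzyme that activates the ATG conjugation proteins and that fell with pegIFN, the matching stretch (chr6:114670846-114671095, plus strand) holds it once. On the same build, the count table places Tfe3 at chrX:7762560-7775202, Map1lc3b at chr8:121590361-121598760, Gabarapl1 at chr6:129533200-129542331, Ulk1 at chr5:110784488-110810097 and Grn at chr11:102430315-102437048. Capitals mark CACGTG, which reads the same on both strands.
Lamp1: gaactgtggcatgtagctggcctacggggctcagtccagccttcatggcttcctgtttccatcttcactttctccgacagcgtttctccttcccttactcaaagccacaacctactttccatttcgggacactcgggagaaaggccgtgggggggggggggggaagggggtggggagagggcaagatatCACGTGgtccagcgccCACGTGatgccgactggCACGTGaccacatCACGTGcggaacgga
Atg7: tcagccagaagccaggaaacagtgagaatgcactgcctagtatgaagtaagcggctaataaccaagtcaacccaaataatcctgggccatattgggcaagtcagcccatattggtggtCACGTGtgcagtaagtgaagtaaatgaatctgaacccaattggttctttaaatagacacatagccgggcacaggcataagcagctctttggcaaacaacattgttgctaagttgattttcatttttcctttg

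Single sites with 10 bases on each side show the core in 4 more of the genes described below, with the same capitals. They lie at chr7:142387910-142387935 (minus strand) in Ctsd, 98 bases before the start, at chr8:3500464-3500489 (plus strand) in Mcoln1, 45 bases before it, at chr11:119267813-119267838 (plus strand) in Gaa, 140 bases before it, and at chr7:126583342-126583367 (minus strand) in Cln3, 121 bases before the start of one of its 2 windows. The starts are those of RefSeq, and the annotation of the count table places several gene starts further upstream. By its coordinates the sites shown of Atg7, Cln3, Ctsd and Mcoln1 and the last of the 4 of Lamp1 lie inside the gene. The Lamp1 site next to that one crosses the gene start, and the site of Gaa and the remaining sites of Lamp1 lie before the gene. The RefSeq starts of Atg7 and Cln3 lie 27999 and 2581 bases into the gene.
Ctsd: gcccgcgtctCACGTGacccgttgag
Mcoln1: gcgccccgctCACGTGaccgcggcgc
Gaa: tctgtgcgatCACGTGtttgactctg
Cln3: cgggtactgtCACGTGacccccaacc

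CACGTG was found in 14 of the 54 windows (25.9%), against 7.15% of the 32851 RefSeq windows of this length. The longer form TCACGTGA, which contains the core, was in 6 windows (11.1%, against 0.974% of all), and the 10-base form with a further G before it and C after it, which contains both, was in 1 window (1.85%, against 0.326%), that of Cln3. In wild-type cells the core was present in 3 of the 11 genes with a window that were higher under pegIFN (Atg5, Ctsd and Lamp1), in 7 of the 16 that were lower (Atg7, Atp6v1a, Cln3, Ctsl, Fnip1, Gaa and Mcoln1) and in 4 of the 17 that were not called. These counts depend on the scaling. With upper-quartile factors Atg5 (adjusted p = 0.149) and Ctsd (adjusted p = 0.361) were not called. Ctsa (adjusted p = 0.00342) and Glb1 (adjusted p = 0.0418), which also hold the core, were then called lower. A second motif, GAAA repeated after a gap of 2 bases as in interferon-stimulated response elements, was searched on both strands and found in 3 windows (5.56%, against 3.44% of all), those of Atp6v1d, Ctss and Lamp1. Ctss is printed because it had the largest increase among the 53 genes in both genotypes. Its 250 bases before the start (chr3:95526536-95526785, plus strand) hold the repeat, in capitals, 21 bases before the start. These matches are letters in a window, and binding was not measured here.
Ctss: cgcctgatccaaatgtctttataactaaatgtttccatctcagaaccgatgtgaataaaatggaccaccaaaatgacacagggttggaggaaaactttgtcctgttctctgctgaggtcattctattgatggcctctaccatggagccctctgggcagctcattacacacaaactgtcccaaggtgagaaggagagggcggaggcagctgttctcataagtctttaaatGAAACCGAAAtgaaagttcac

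**Figure D1:**
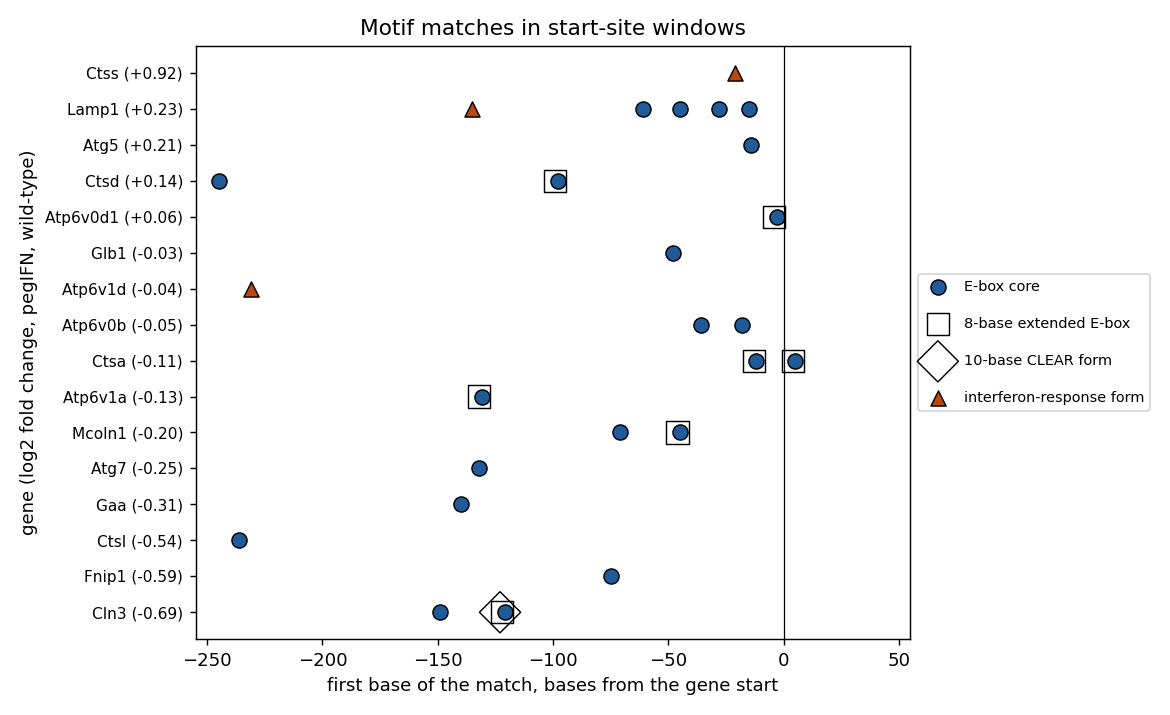
Positions of motif matches in the start-site windows, in bases from the gene start (horizontal), for each of the genes that hold one (vertical, ordered by the log2 fold change with pegIFN in wild-type cells). Matches of CACGTG lie in genes from both ends of that order, among them Lamp1 with 4 matches.

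Per kilobase of exon, levels among the 53 genes covered a wide span. The most abundant transcripts in wild-type vehicle cells were those of Psap, the precursor of the saposins, at 459 ± 34.4 TPM (a level scaled for exon length and library size, ± SD, n = 6), the aspartic protease Ctsd at 386 ± 20.4 and the ATG8-family gene Gabarapl1 at 314 ± 39.9. Of the transcription factors, Tfe3 was at 11.4 ± 1.15, Tfeb at 8.24 ± 0.526 and Mitf at 4.62 ± 0.917 TPM, and the Rag GTPase gene Rragd was the lowest of all at 0.473 ± 0.234 TPM. Flcn, the folliculin gene, was at 66.3 ± 11.7 TPM, above these factors in every library. Expected counts were fractional in 95.8 to 100% of the libraries for Cd63, Npc1, Cln3, Ctsa, Ctsb, Glb1, Atp6v0c, Sqstm1, Map1lc3b and Becn1, whose reads are in part shared with other genes, so their values are less certain.

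The first question was which of these genes changed with pegIFN, asked separately in wild-type and in Jak2V617F cells. In wild-type LT-HSCs 12 of the 53 genes rose and 20 fell, which is 60.4% of them, where 56.8% of all 15879 tested genes were called (28.2% higher and 28.7% lower). In Jak2V617F LT-HSCs 12 rose and 11 fell (43.4%), where 44% of all genes were called (21.7% higher and 22.3% lower). Both shares stood near those of all genes. The median log2 fold change of the 53 genes was -0.07 in wild-type and 0.01 in Jak2V617F cells, where the median of all genes was -0.01 in both. The 6 pegIFN libraries lay outside the range of the 6 vehicle libraries for 5 higher and 10 lower genes in wild-type cells (30% of all genes did so, 15.1% higher and 14.8% lower) and for 9 higher and 4 lower genes in Jak2V617F cells (18.4% of all genes did so, 9.81% higher and 8.58% lower). Without the 2 libraries that stood apart in sex-linked genes, 11 rose and 18 fell in wild-type cells (53.2% of all genes called), and 10 rose and 11 fell in Jak2V617F cells (42.2%). Marker lists also moved with pegIFN: the 8 LT-HSC markers summed to 1266 to 2050.0 CPM in wild-type vehicle and 754 to 1108 CPM in wild-type pegIFN libraries, and to 939.5 to 1442 and 627 to 1204 CPM in the Jak2V617F groups, with 1 called higher and 6 lower in each genotype. The 5 erythroid markers summed to 108 to 513 and 14.9 to 36.3 CPM in the wild-type groups and to 100.0 to 249 and 5.09 to 39.0 CPM in the Jak2V617F groups, with 4 called lower in each. The 5 megakaryocyte markers summed to 559 to 1507 and 1120.0 to 1782 CPM in the wild-type groups (2 called higher) and to 828.5 to 1804 and 1432 to 2048 CPM in the Jak2V617F groups (none called). The 5 B cell markers summed to 14.6 to 23.4 and 9.51 to 13.2 CPM in the wild-type groups (3 of 3 tested called lower) and to 10.9 to 20.1 and 10.7 to 17.0 CPM in the Jak2V617F groups (1 of 3 lower). The share of mitochondrial reads was 2.46 to 4.01% and 1.54 to 2.24% in the wild-type groups, without overlap, and 2.68 to 3.44% and 2.0 to 3.25% in the Jak2V617F groups. The part of these shifts in the results below was not tested.

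**Figure D2:**
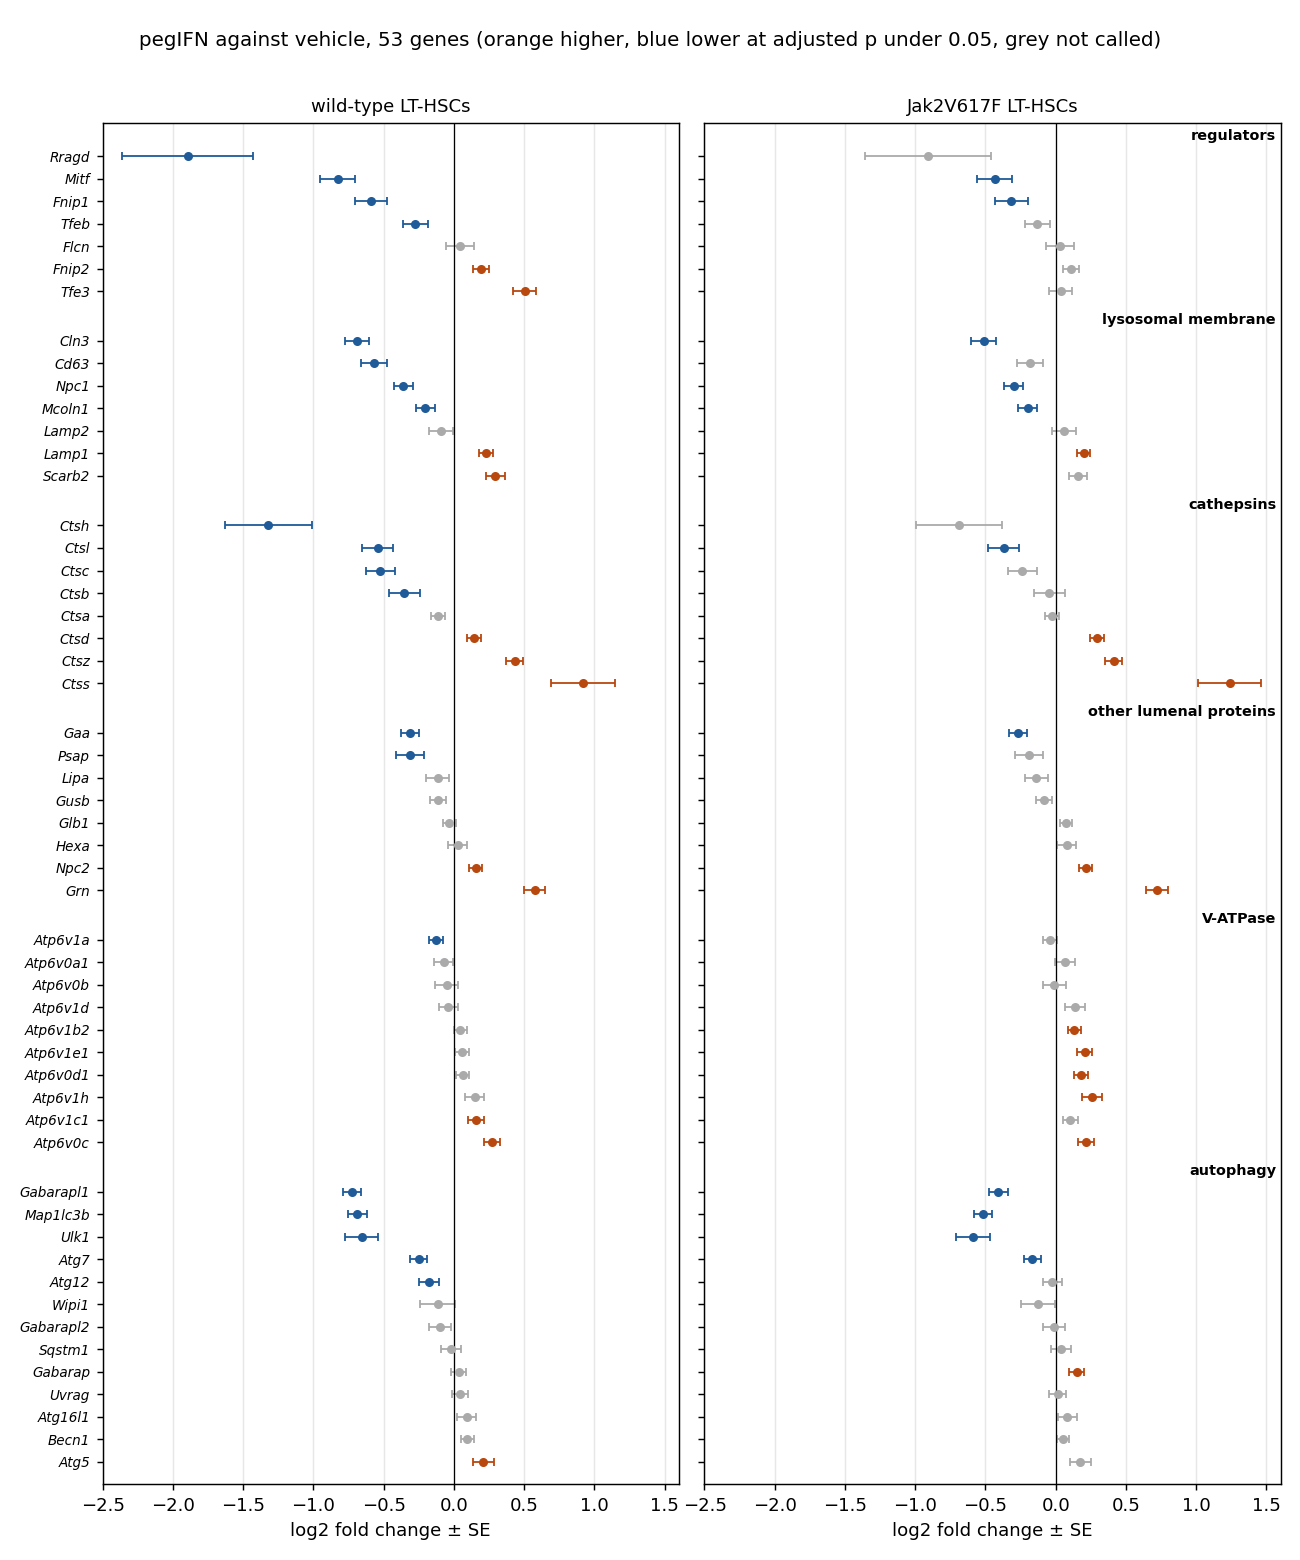
Log2 fold change with pegIFN ± SE (horizontal) of each of the 53 genes (vertical, by role), in wild-type and in Jak2V617F LT-HSCs, with orange points called higher, blue points called lower and grey points not called. Grn, Ctsz and Ctss lie to the right in both panels, and Map1lc3b, Gabarapl1, Ulk1 and Cln3 lie to the left in both.

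Of the 7 regulators, 2 rose and 4 fell in wild-type cells, and none rose and 2 fell in Jak2V617F cells. Tfe3, which encodes one of the 3 transcription factors, had 29.7 to 38.7 (median 32.3) CPM in wild-type vehicle and 36.4 to 57.8 (median 46.1) CPM in wild-type pegIFN libraries, where ranges here and below run from the lowest to the highest of 6 libraries. It rose in wild-type cells (log2 fold change ± SE 0.51 ± 0.08, adjusted p = 1.43e-05), with the lowest pegIFN library below the highest vehicle library. Its Jak2V617F libraries had 27.6 to 32.6 (median 31.8) CPM under vehicle and 29.3 to 34.0 (median 31.4) CPM under pegIFN, and no change was called (0.04 ± 0.08, adjusted p = 0.769). The wild-type pegIFN group thus stood above both Jak2V617F groups, and it overlapped the wild-type vehicle group at its lowest library only.

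Tfeb, the close relative of Tfe3, went the other way in wild-type cells. It had 13.7 to 15.6 (median 14.2) CPM under vehicle and 10.7 to 13.4 (median 11.8) CPM under pegIFN, with no overlap between the groups (-0.28 ± 0.09, adjusted p = 0.00988). In Jak2V617F cells its value was -0.13 ± 0.09, adjusted p = 0.242, and it was not called. Mitf, the melanocyte and mast-cell member of the family, was low throughout and fell in both genotypes. Its wild-type libraries went from a median of 9.04 (6.84 to 10.8) to 5.15 (3.98 to 5.68) CPM without overlap (-0.83 ± 0.13, adjusted p = 5.77e-06), and its Jak2V617F libraries from a median of 7.57 (6.77 to 8.81) to 5.41 (4.81 to 7.5) CPM with overlap (-0.43 ± 0.13, adjusted p = 0.00682).

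Of the folliculin complex, Flcn itself was not called in either genotype (0.05 ± 0.10, adjusted p = 0.712 in wild-type and 0.03 ± 0.10, adjusted p = 0.827 in Jak2V617F cells). Its partner Fnip1 fell in both, from a median of 50.4 (38.1 to 66.5) to 32.8 (28.8 to 42.3) CPM in wild-type cells (-0.59 ± 0.12, adjusted p = 0.000132) and from a median of 44.7 (40.9 to 50.6) to 38.4 (28.6 to 42.7) CPM in Jak2V617F cells (-0.32 ± 0.12, adjusted p = 0.0297). The other partner, Fnip2, rose by a small amount in wild-type cells, where its groups did not overlap (0.19 ± 0.06, adjusted p = 0.00545), though not with upper-quartile scaling (0.11, adjusted p = 0.141). Rragd, one of the Rag GTPases that recruit mTORC1 and that is itself a known target of TFEB, was close to the detection limit, with 7 to 44 reads per wild-type vehicle library and 3 to 12 per wild-type pegIFN library. Its fitted value there was -1.90 ± 0.46, adjusted p = 0.00124, and in Jak2V617F cells -0.91 ± 0.45, adjusted p = 0.103, which was not called.

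**Figure D3:**
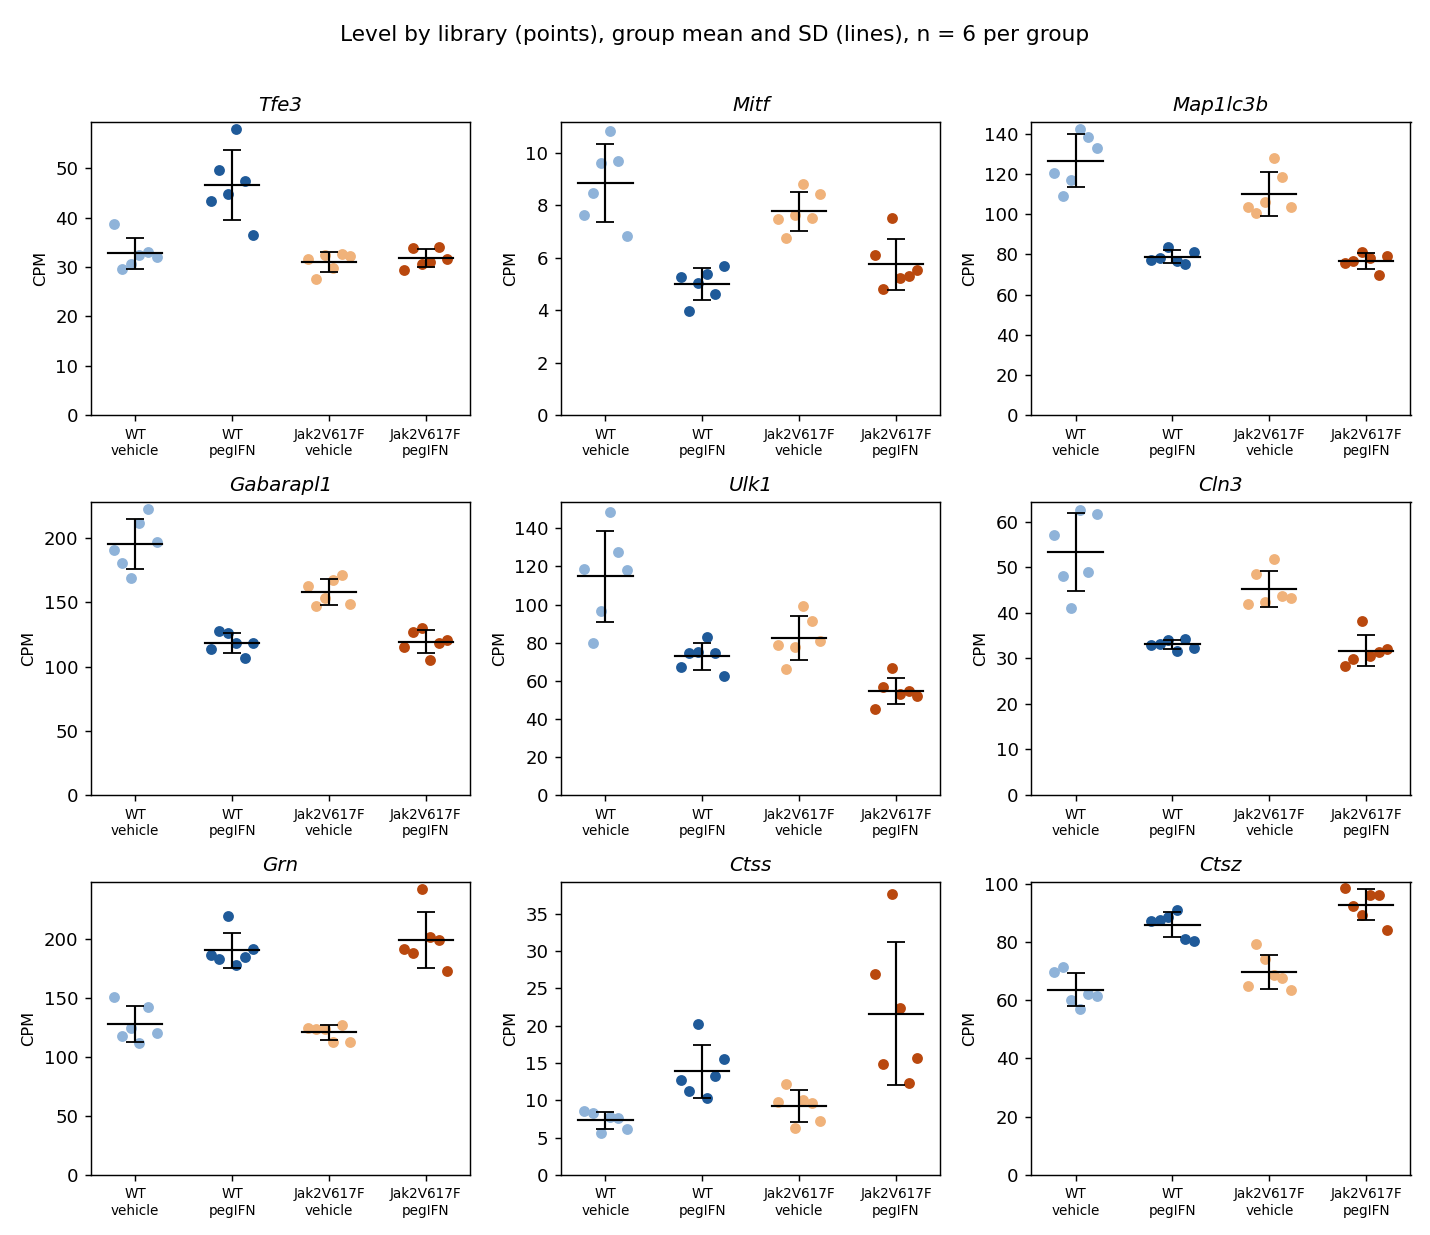
Level in CPM (vertical, from 0) of 9 of the genes in each of the 24 libraries (points) with the group mean and SD (lines), n = 6 per group. Tfe3 is raised in the wild-type pegIFN group, while Map1lc3b, Gabarapl1, Ulk1 and Cln3 are lower and Grn, Ctss and Ctsz higher in the pegIFN groups of both genotypes.

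Among the 7 lysosomal membrane proteins, 2 rose and 4 fell in wild-type cells, and 1 rose and 3 fell in Jak2V617F cells. Cln3, whose loss causes a juvenile neuronal storage disease, had 41.1 to 62.6 (median 53) CPM in wild-type vehicle and 31.6 to 34.3 (median 33.1) CPM in wild-type pegIFN libraries. The groups did not overlap, and the level under pegIFN was 0.621 times that under vehicle (-0.69 ± 0.09, adjusted p = 5.32e-07). Jak2V617F libraries showed the same order without overlap, 41.9 to 51.7 (median 43.4) CPM under vehicle and 28.4 to 38.2 (median 31.0) CPM under pegIFN (-0.51 ± 0.09, adjusted p = 6.08e-05). Npc1, the cholesterol exporter mutated in Niemann-Pick disease type C, also fell in both, from a median of 52 (42 to 55.5) to 39.1 (38.0 to 43.1) CPM in wild-type cells (-0.36 ± 0.07, adjusted p = 8.45e-05) and from a median of 48.5 (42.4 to 52.6) to 38.7 (34.3 to 44.8) CPM in Jak2V617F cells (-0.30 ± 0.07, adjusted p = 0.00103). Mcoln1, the lysosomal calcium channel, fell by less (-0.20 ± 0.07, adjusted p = 0.00973 and -0.20 ± 0.07, adjusted p = 0.0151).

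Lamp1 rose in both genotypes. It had 165 to 203 (median 193) CPM in wild-type vehicle and 213 to 239.7 (median 221) CPM in wild-type pegIFN libraries (0.23 ± 0.05, adjusted p = 0.000292), and 196 to 219.5 (median 209) and 224 to 250.2 (median 245) CPM in the Jak2V617F groups (0.20 ± 0.05, adjusted p = 0.00202). Neither pair of groups overlapped. Cd63, a tetraspanin of late endosomes, fell in wild-type cells from a median of 147 (115 to 172) to 95.4 (82.0 to 113) CPM without overlap (-0.57 ± 0.09, adjusted p = 1.74e-05). In Jak2V617F cells it had 119 to 157 (median 138) CPM under vehicle and 108 to 135 (median 123) CPM under pegIFN, the groups overlapped, and no change was called (-0.18 ± 0.09, adjusted p = 0.118). Scarb2, the receptor that carries glucocerebrosidase to lysosomes, rose in wild-type cells (0.29 ± 0.07, adjusted p = 0.000611) and just missed the threshold in Jak2V617F cells (0.16 ± 0.07, adjusted p = 0.0579). Lamp2 was not called in either genotype.

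Of the 8 cathepsins, 3 rose and 4 fell in wild-type cells, and 3 rose and 1 fell in Jak2V617F cells. Cathepsins S, Z and D rose in both genotypes. Ctss, the cysteine protease that trims the invariant chain for antigen presentation, had 5.67 to 8.51 (median 7.67) CPM in wild-type vehicle and 10.3 to 20.2 (median 13.0) CPM in wild-type pegIFN libraries, and 6.27 to 12.2 (median 9.69) and 12.3 to 37.7 (median 19.0) CPM in the Jak2V617F groups. It was 1.89 times higher in wild-type (0.92 ± 0.23, adjusted p = 0.00139) and 2.36 times higher in Jak2V617F cells (1.24 ± 0.23, adjusted p = 0.000135), with no overlap in either. The Jak2V617F pegIFN libraries were also the most scattered of the 4 groups for this gene. Ctss is expressed by monocytes and macrophages, whose summed markers had medians of 205 and 112 CPM in the wild-type vehicle and pegIFN groups and of 217 and 148 CPM in the Jak2V617F groups. These 9 markers did not move together with pegIFN: 1 was called higher and 3 lower in wild-type cells, and 1 higher and 1 lower in Jak2V617F cells. Their part in the result was not tested.

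Ctsz, a carboxypeptidase, went from a median of 61.9 (57.0 to 71.4) to 87.5 (80.3 to 91.2) CPM in wild-type cells (0.43 ± 0.06, adjusted p = 2.58e-06) and from a median of 68.1 (63.7 to 79.3) to 94.2 (84.1 to 98.7) CPM in Jak2V617F cells (0.41 ± 0.06, adjusted p = 1.32e-05). No pegIFN library of either genotype overlapped its vehicle group. Ctsd rose by less in wild-type cells, where the groups overlapped (0.14 ± 0.05, adjusted p = 0.0208, and adjusted p = 0.361 with upper-quartile scaling), and in Jak2V617F cells it went from a median of 271 (247 to 289.6) to 328 (309 to 376) CPM without overlap (0.30 ± 0.05, adjusted p = 7.07e-05). Exons of another annotated transcript on the same strand, Gm49369, cover 34.4% of the exon length of Ctsd, so reads there could be shared.

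Cathepsins L, C, H and B fell in wild-type cells. Ctsl, an endopeptidase, had 19.4 to 27.5 (median 23.3) CPM under vehicle and 13.6 to 19.2 (median 15.9) CPM under pegIFN, without overlap (-0.54 ± 0.11, adjusted p = 0.000194), and it fell in Jak2V617F cells as well (-0.37 ± 0.11, adjusted p = 0.00903). Exons of Gm47123 on the opposite strand cover 26.8% of the exon length of Ctsl, and those of Gm49230 on the same strand 6.09%, so reads there could be shared. Ctsc, which activates granule serine proteases, fell in wild-type cells from a median of 51.7 (49.7 to 67.7) to 37.9 (32.3 to 43.5) CPM, again without overlap (-0.53 ± 0.10, adjusted p = 0.000137). Ctsh, an aminopeptidase with a low level in these cells, fell from a median of 6.73 (5.92 to 9.38) to 2.76 (1.56 to 5.59) CPM (-1.32 ± 0.31, adjusted p = 0.000894). Ctsb fell in wild-type cells (-0.35 ± 0.11, adjusted p = 0.00815). The last 3 of these were not called in Jak2V617F cells, with values of -0.24 ± 0.10, -0.69 ± 0.31 and -0.05 ± 0.11, and their difference between genotypes is tested further on. With upper-quartile scaling Ctsc was called lower there too (adjusted p = 0.0289).

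The other 8 lumenal proteins had 2 rises and 2 falls in wild-type cells, and 2 rises and 1 fall in Jak2V617F cells. Grn, the precursor of the lysosomal granulins, had 112 to 151 (median 123) CPM in wild-type vehicle and 178 to 219.8 (median 186) CPM in wild-type pegIFN libraries. Under pegIFN it was 1.49 times higher (0.58 ± 0.08, adjusted p = 8.84e-07). In Jak2V617F cells it went from a median of 124 (113 to 127) to 196 (173 to 243) CPM, 1.65 times higher (0.72 ± 0.08, adjusted p = 9.89e-08). The vehicle and pegIFN groups were clearly apart in both genotypes, and Grn had the smallest p of the 53 genes in Jak2V617F cells. Npc2, which hands cholesterol to NPC1, rose by less, from a median of 86.9 (82.1 to 92.1) to 96.2 (91.8 to 103) CPM in wild-type cells (0.15 ± 0.05, adjusted p = 0.00746) and with 0.21 ± 0.05, adjusted p = 0.000877 in Jak2V617F cells. With upper-quartile scaling the rise in wild-type cells was not called (adjusted p = 0.202). 

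Gaa, the acid glucosidase that degrades glycogen and is deficient in Pompe disease, fell in both genotypes. It had 136 to 183 (median 161) CPM in wild-type vehicle and 116 to 139 (median 130.4) CPM in wild-type pegIFN libraries (-0.31 ± 0.07, adjusted p = 0.000293), with some overlap. The Jak2V617F groups had 122 to 147 (median 133) and 96.5 to 122 (median 112) CPM, and the upper end of the pegIFN group lay just below the lower end of the vehicle group (-0.27 ± 0.07, adjusted p = 0.00215). Psap fell in wild-type cells (-0.31 ± 0.10, adjusted p = 0.0103) and was not called in Jak2V617F cells (-0.19 ± 0.10, adjusted p = 0.126). Hexa, Glb1, Gusb and Lipa, which encode 3 glycosidases and the acid lipase, were not called in either. With upper-quartile scaling Glb1 (adjusted p = 0.0418) and Gusb (adjusted p = 0.00476) were called lower in wild-type cells, and Gusb (adjusted p = 0.0438) in Jak2V617F cells.

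The 10 subunits of the V-ATPase, the pump that acidifies lysosomes, shifted by small amounts: 2 rose and 1 fell in wild-type cells, and 5 rose and none fell in Jak2V617F cells. The median log2 fold change of the subunits was 0.05 in wild-type and 0.14 in Jak2V617F cells, and with upper-quartile scaling -0.03 and 0.08, so that the sign in wild-type cells depended on the scaling. Atp6v0c, the proteolipid of the membrane ring, rose in both genotypes, from a median of 129.5 (112 to 144) to 154 (142 to 161) CPM (0.27 ± 0.06, adjusted p = 0.000331) and from a median of 141 (129.9 to 149.7) to 165 (150.2 to 172) CPM (0.22 ± 0.06, adjusted p = 0.00369). Atp6v1c1, a subunit that links the cytoplasmic and membrane sectors, rose in wild-type cells (0.16 ± 0.05, adjusted p = 0.0162, and adjusted p = 0.227 with upper-quartile scaling). Atp6v1a, the catalytic subunit, fell in wild-type cells, where its pegIFN group of 72.1 to 82.7 CPM lay below the vehicle group of 83.1 to 91.0 CPM by a narrow margin (-0.13 ± 0.05, adjusted p = 0.0318). The largest rise in Jak2V617F cells was that of Atp6v1h, a regulatory subunit (0.26 ± 0.07, adjusted p = 0.00405). Atp6v1e1, of the peripheral stalk, also rose in these cells, with 47.6 to 53.2 (median 49.9) CPM under vehicle and 53.6 to 65.0 (median 56.7) CPM under pegIFN (0.21 ± 0.05, adjusted p = 0.00267). Atp6v0d1 and Atp6v1b2 rose there too, by 0.18 and 0.13 on the log2 scale. The rise of Atp6v1b2 (adjusted p = 0.0267) was not called with upper-quartile scaling (0.07, adjusted p = 0.194), which left 4 subunits called higher in Jak2V617F cells.

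Of the 13 autophagy genes, 1 rose and 5 fell in wild-type cells, and 1 rose and 4 fell in Jak2V617F cells. Gabarapl1, an ATG8-family protein that is lipidated onto autophagosomes, had 169 to 223 (median 194) CPM in wild-type vehicle and 107 to 128 (median 118) CPM in wild-type pegIFN libraries. Every pegIFN library was below every vehicle library (-0.72 ± 0.07, adjusted p = 3.21e-09), and this was the smallest p of the 53 genes in wild-type cells. In Jak2V617F cells it had 147 to 172 (median 158) and 105 to 130.2 (median 119) CPM, also without overlap (-0.41 ± 0.07, adjusted p = 2.73e-05). Exons of 1700101I11Rik on the opposite strand cover 28.3% of the exon length of Gabarapl1, and whether strand was used in counting was not given in the sources used here. The same limit holds for Becn1, with 43.9% of its exon length covered on the opposite strand. It also holds for Uvrag (17.6%), Ctsa (17.4%), Sqstm1 (17.3%), Ctsb (12.8%), Hexa (12.8%) and Atp6v0b (11.8%).

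Map1lc3b, which encodes LC3B, the ATG8-family protein used as a marker of autophagosomes, fell in the same way. Its wild-type libraries went from a median of 127 (109 to 142) to 77.8 (75.0 to 83.8) CPM (-0.69 ± 0.07, adjusted p = 8.37e-09) and its Jak2V617F libraries from a median of 105 (101 to 128) to 77.5 (69.6 to 81.2) CPM (-0.52 ± 0.07, adjusted p = 1.52e-06), without overlap in either. The remaining 2 ATG8-family genes behaved otherwise: Gabarap was not called in wild-type cells (0.03 ± 0.05) and rose slightly in Jak2V617F cells (0.15 ± 0.05, adjusted p = 0.0256, and adjusted p = 0.159 with upper-quartile scaling), and Gabarapl2 was not called in either (adjusted p = 0.0443 and lower in wild-type cells with upper-quartile scaling).

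Ulk1, the kinase that starts autophagosome formation and that mTORC1 inhibits, had 79.8 to 149 (median 118) CPM in wild-type vehicle and 62.7 to 83.2 (median 74.7) CPM in wild-type pegIFN libraries. It fell to 0.635 of the vehicle level (-0.66 ± 0.12, adjusted p = 5.26e-05), with a small overlap of the ranges. It fell in Jak2V617F cells from a median of 79.8 (66.0 to 99.2) to 53.8 (45.4 to 66.6) CPM (-0.59 ± 0.12, adjusted p = 0.000356). Atg7 fell by less in both genotypes (-0.25 ± 0.06, adjusted p = 0.0012 and -0.17 ± 0.06, adjusted p = 0.0292), Atg12, the ubiquitin-like partner of ATG5, fell in wild-type cells (-0.18 ± 0.07, adjusted p = 0.0319), and Atg5 itself rose there (0.21 ± 0.08, adjusted p = 0.0232, and adjusted p = 0.149 with upper-quartile scaling). Sqstm1, the cargo receptor p62, was not called in either (-0.02 ± 0.07 and 0.04 ± 0.07). The other four genes, Becn1, Atg16l1, Wipi1 and Uvrag, which act in vesicle nucleation and membrane conjugation, were not called in any comparison. With no filter on low counts, Becn1 was called higher under pegIFN in wild-type cells (0.13, adjusted p = 0.0357, against 0.0687 with the filter).

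The second question was which of the genes differed between Jak2V617F and wild-type cells of the same treatment. Of the marker lists under vehicle, 2 of 5 megakaryocyte markers were called higher in Jak2V617F cells. The LT-HSC markers were negative in 8 of 8 (median -0.34 on the log2 scale), with 1 called lower. Granulocyte markers were positive in 8 of 8 (median 1.26) and monocyte and macrophage markers in 9 of 9 (median 0.255), with none called. Under pegIFN 1 of 8 LT-HSC markers was called lower. The part of these markers in the results was not tested. These comparisons share their wild-type and Jak2V617F libraries with the treatment comparisons, so the 2 kinds of result are not independent. Under vehicle 1 of the 53 genes was higher and 5 were lower in Jak2V617F cells (11.3%), where 12.7% of all genes were called (8.48% higher and 4.23% lower). Under pegIFN 2 were higher and 4 lower (11.3%), where 8.59% of all genes were called (4.16% higher and 4.43% lower). None of the 53 had groups that did not overlap under vehicle (2.91% of all genes did so, 1.76% higher and 1.15% lower), and 4 did under pegIFN (3.46% of all genes did so, 1.65% higher and 1.81% lower): Atp6v1e1 higher, and Tfe3, Fnip2 and Sqstm1 lower. The median log2 difference was -0.07 under vehicle and 0.07 under pegIFN, against -0.01 and 0.02 over all genes. Without the 2 libraries that stood apart, 1 was higher and 3 lower under vehicle (6.27% of all genes called), and none was higher and 2 lower under pegIFN (4.1%). Tfe3 and Fnip2 under pegIFN and Gaa, Gabarapl1, Ulk1 and Atp6v1c1 under vehicle were called both with and without those libraries.

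**Figure D4:**
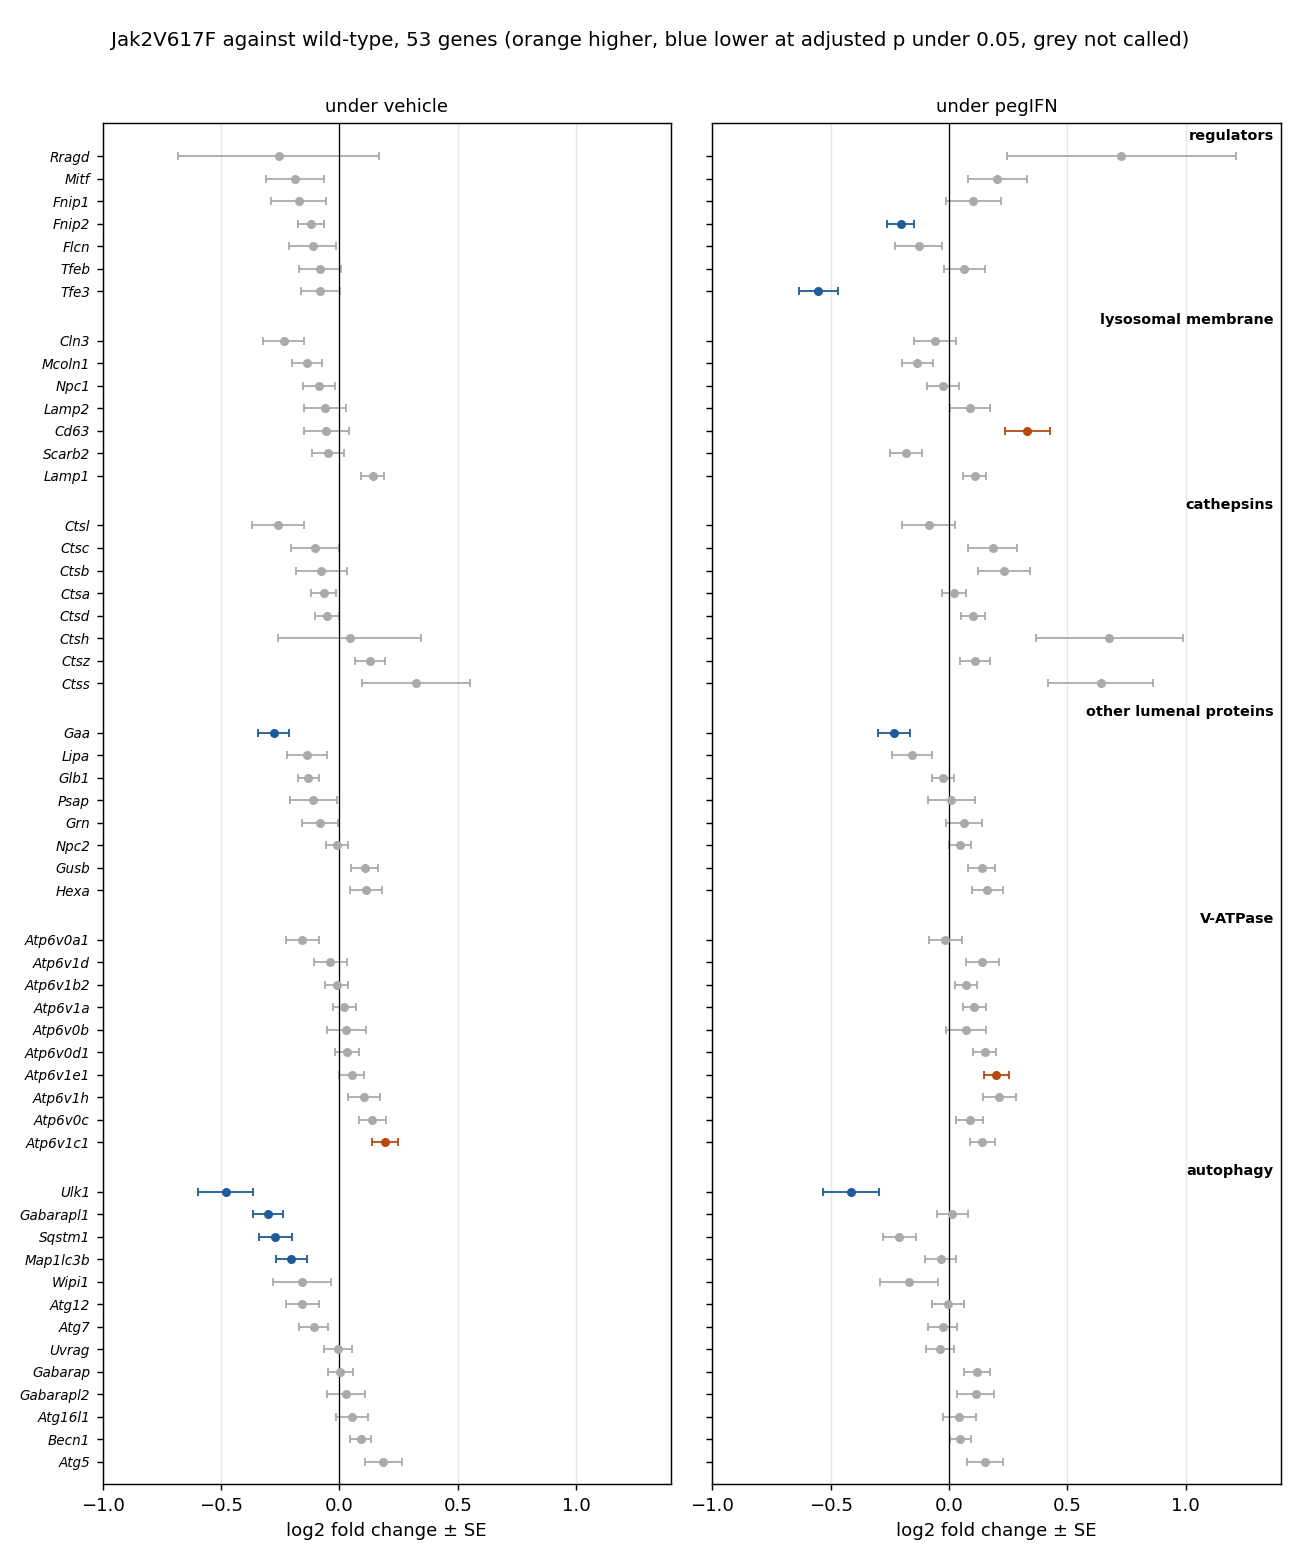
Log2 difference of Jak2V617F against wild-type ± SE (horizontal) of each of the 53 genes (vertical, by role), under vehicle and under pegIFN, with orange points called higher, blue points called lower and grey points not called. Most points lie close to 0, with Ulk1 and Gaa called lower in both panels and Tfe3 called lower in the pegIFN panel.

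Tfe3 had the smallest p of the 53 genes between genotypes, and it passed the test under pegIFN and not under vehicle. Its 6 Jak2V617F pegIFN libraries, at 29.3 to 34.0 CPM, all lay below the 6 wild-type pegIFN libraries, at 36.4 to 57.8 CPM (-0.55 ± 0.08, adjusted p = 0.00021). Within each of the 6 mice the Jak2V617F library was lower, by 0.20 to 0.90 on the log2 scale. Under vehicle the value was -0.08 ± 0.08, adjusted p = 0.543, and 4 of 6 mice had the lower level in Jak2V617F cells. With the 2 libraries left out the pegIFN difference was -0.53 ± 0.09, adjusted p = 0.001. Tfe3 lies on the X chromosome, and the genotypes differ in Xist as given above, so for this gene genotype and that difference cannot be told apart. Fnip2, on an autosome, was lower in Jak2V617F cells under pegIFN in 6 of 6 mice (-0.20 ± 0.06, adjusted p = 0.0269), and the remaining regulators were not called in either treatment.

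3 genes were lower in Jak2V617F cells within all 12 mice: Ulk1, Gaa and Sqstm1. Lamp1, Atp6v1c1 and Atg5 were higher in Jak2V617F cells within all 12 mice. The share of all genes with the same direction in all 12 mice was not counted. Ulk1 had 118 CPM in wild-type and 79.8 CPM in Jak2V617F cells at the median under vehicle (-0.48 ± 0.12, adjusted p = 0.0111), and 74.7 and 53.8 CPM under pegIFN (-0.41 ± 0.12, adjusted p = 0.0324). The groups overlapped, but the log2 ratio within a mouse ran from -0.59 to -0.27 under vehicle and from -0.65 to -0.17 under pegIFN. Gaa was lower by similar amounts in both treatments (-0.28 ± 0.07, adjusted p = 0.00932 under vehicle and -0.23 ± 0.07, adjusted p = 0.0313 under pegIFN), with ratios within a mouse between -0.43 and -0.10. Sqstm1, which had not been called with pegIFN, had 101 to 143 (median 130.4) CPM in wild-type vehicle and 93.2 to 123 (median 105) CPM in Jak2V617F vehicle libraries (-0.27 ± 0.07, adjusted p = 0.0151). Under pegIFN it had 119 to 133 (median 126) and 103 to 115 (median 109) CPM, without overlap, and just missed the threshold (-0.21 ± 0.07, adjusted p = 0.0606). When the 2 libraries were left out, Sqstm1 under vehicle and Ulk1 and Gaa under pegIFN no longer passed, with adjusted p = 0.0537, 0.0607 and 0.0805 respectively.

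**Figure D5:**
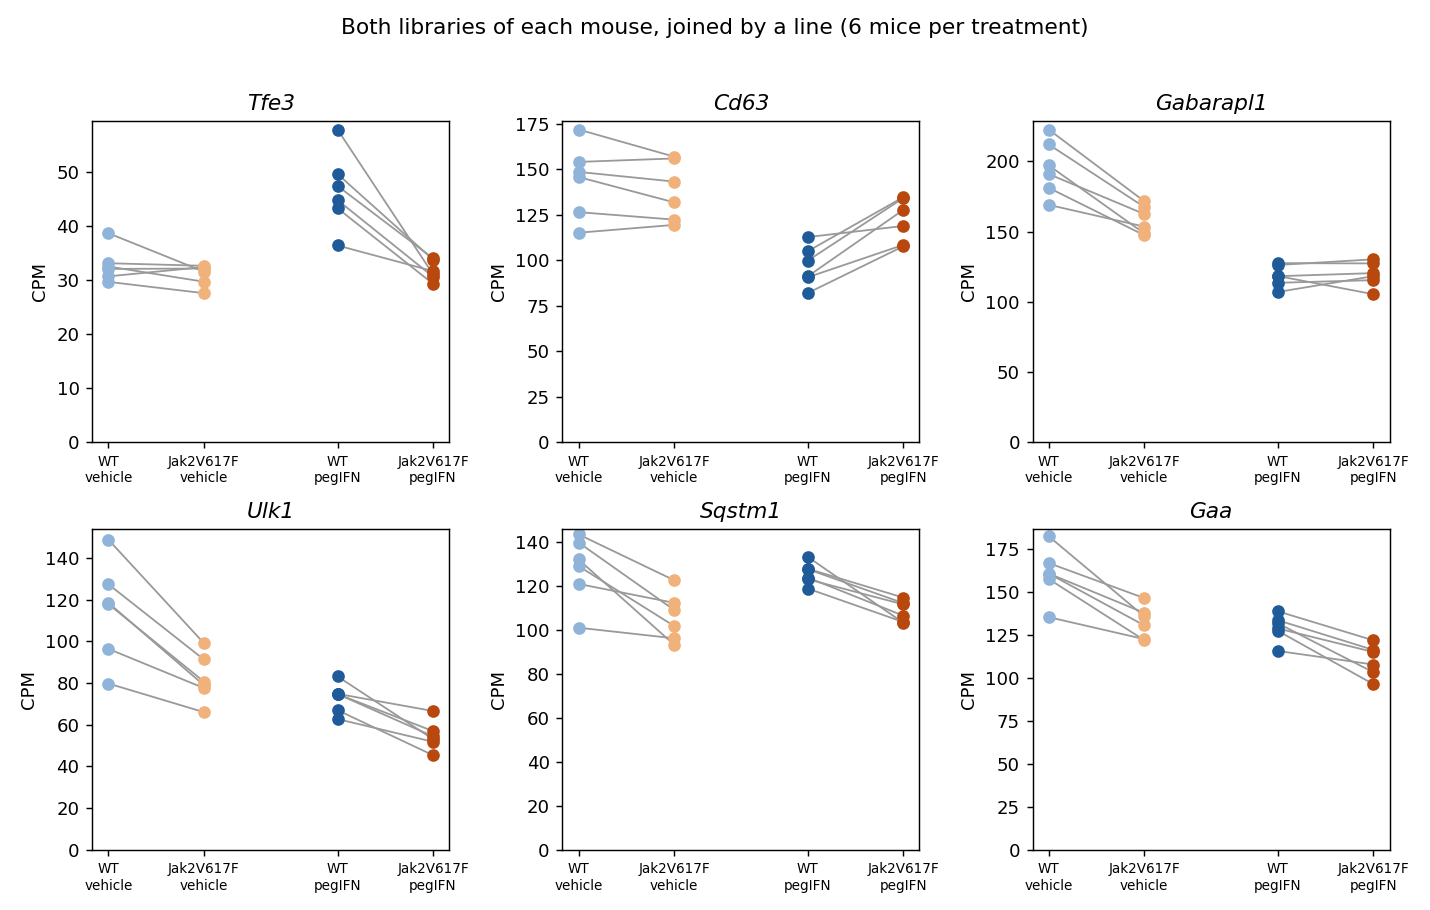
Level in CPM (vertical, from 0) in the wild-type and the Jak2V617F library of each mouse, joined by a line, 6 mice per treatment, for 6 of the genes. The lines of Ulk1, Sqstm1 and Gaa slope downwards towards Jak2V617F in every mouse of both treatments, while those of Tfe3 do so in every mouse under pegIFN only.

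The ATG8-family genes that fell with pegIFN were also lower in Jak2V617F cells under vehicle. Gabarapl1 had a median of 194 CPM in wild-type and 158 CPM in Jak2V617F vehicle libraries (-0.30 ± 0.07, adjusted p = 0.00495), lower in 6 of 6 mice. Under pegIFN the medians were 118 and 119 CPM (0.01 ± 0.07, adjusted p = 0.934). Map1lc3b was likewise lower under vehicle in 6 of 6 mice (-0.20 ± 0.07, adjusted p = 0.0408), and under pegIFN its value was -0.04 ± 0.07, adjusted p = 0.791. Leaving out the 2 libraries, the Map1lc3b difference under vehicle was no longer called (adjusted p = 0.124).

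Higher in Jak2V617F cells were 2 pump subunits and 1 membrane protein, by small amounts. Atp6v1c1 had 33.6 to 41.6 (median 34.9) CPM in wild-type and 39.4 to 42.8 (median 41.3) CPM in Jak2V617F vehicle libraries (0.19 ± 0.06, adjusted p = 0.0217). Atp6v1e1 under pegIFN had 47.8 to 53.5 (median 50.2) and 53.6 to 65.0 (median 56.7) CPM without overlap (0.20 ± 0.05, adjusted p = 0.0207). Cd63 under pegIFN had 82.0 to 113 (median 95.4) and 108 to 135 (median 123) CPM, with overlap, and was higher in 6 of 6 mice (0.33 ± 0.09, adjusted p = 0.03). Without the 2 libraries the last 2 were not called (adjusted p = 0.0658 and 0.0806). No cathepsin was called in either treatment: the smallest p was that of Ctss under pegIFN (0.64 ± 0.22, adjusted p = 0.0717), beside granulocyte markers of which 3 of 8 were called higher in the same comparison, and monocyte and macrophage markers of which 9 of 9 were positive (median 1.12 on the log2 scale) and 1 was called higher. The part of these markers in the result was not tested. Under vehicle the smallest were those of Ctsl (-0.26 ± 0.11) and Ctsz (0.13 ± 0.06).

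With the mouse as a block, which compares the 2 libraries of each mouse, more of the small differences between genotypes passed. The block raised the calls among the 53 genes to 5 higher and 9 lower under vehicle (31.1% of all genes called) and to 13 higher and 7 lower under pegIFN (24.6%). Lamp1 was then higher in Jak2V617F cells under both treatments (0.14 ± 0.04, adjusted p = 0.00866 under vehicle, and 0.11 ± 0.04, adjusted p = 0.0455 under pegIFN), as it was in each of the 12 mice. Under pegIFN the cathepsins Ctss (0.58 ± 0.14, adjusted p = 0.00744), Ctsh (0.69 ± 0.15, adjusted p = 0.00298), Ctsb (0.216 ± 0.065, adjusted p = 0.0229) and Ctsc (0.18 ± 0.06, adjusted p = 0.0312) were added on the higher side. The pump subunit Atp6v1h (0.21 ± 0.05, adjusted p = 0.00271) was among the others added there, and Sqstm1 (-0.21 ± 0.05, adjusted p = 0.00541) among those on the lower side. Under vehicle Cln3 (-0.23 ± 0.07, adjusted p = 0.0195) and Ctsl (-0.27 ± 0.09, adjusted p = 0.0383) were added on the lower side. Without both mice of the 2 libraries, Lamp1 (adjusted p = 0.0503 under vehicle and 0.211 under pegIFN), Cln3 under vehicle (adjusted p = 0.0581) and Ctsb and Ctsc under pegIFN were not called, while Ctss, Ctsh, Atp6v1h and Sqstm1 under pegIFN and Ctsl under vehicle were. Leaving out both mice gave 2 higher and 8 lower under vehicle (25% of all genes called) and 6 higher and 7 lower under pegIFN (16%).

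The third question was whether the response to pegIFN differed between the genotypes, tested as an interaction. No gene of the 15879, and so none of the 53, was called by edgeR (0% of genes), with 1338 genes and 5 of the 53 at an unadjusted p under 0.05. DESeq2 called 46 genes, of which 1, Tfe3, was among the 53. The value for Tfe3, the pegIFN response in Jak2V617F minus that in wild-type cells, was -0.47 ± 0.12, adjusted p = 0.203, with edgeR. With DESeq2 it was -0.47, adjusted p = 0.049. With the mouse as a block 528 genes were called (3.33%), of which 3 were among the 53. These were Tfe3 (-0.46 ± 0.10, adjusted p = 0.0167), Cd63 (0.38 ± 0.07, adjusted p = 0.00848) and Gabarapl1 (0.31 ± 0.06, adjusted p = 0.0139). Without both mice of the 2 libraries, 104 genes were called (0.658%), and Cd63 was called (0.37 ± 0.07, adjusted p = 0.0385) while Tfe3 (-0.48 ± 0.11, adjusted p = 0.063) and Gabarapl1 (0.29 ± 0.07, adjusted p = 0.0706) were not. Tfe3 and Cd63 were called with pegIFN in wild-type cells only. For the other genes called in one genotype only, among them Tfeb, Ctsb, Ctsc, Ctsh, Psap and several pump subunits, no fit called the difference in response.

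Beyond the 53 genes, 123 further genes of the same pathways were examined. With pegIFN, where 56.8% of all genes were called in wild-type and 44% in Jak2V617F cells, the 5 lists had 50% to 60% and 37.9% to 75% of their tested genes called. Of 29 further lysosomal enzymes tested, 4 rose and 12 fell in wild-type and 3 rose and 8 fell in Jak2V617F cells (55.2% and 37.9%). Those with the smallest p were Galc, the galactocerebrosidase (-1.14 ± 0.11, adjusted p = 1.9e-08 in wild-type and -0.86 ± 0.11, adjusted p = 3.11e-06 in Jak2V617F cells), the sulfamidase Sgsh (-2.0 ± 0.23, adjusted p = 2.14e-07 and -2.47 ± 0.24, adjusted p = 4.24e-08) and the protease Ctsf (-2.57 ± 0.30, adjusted p = 2.42e-07 and -2.22 ± 0.30, adjusted p = 5.69e-06). Ctsf went from a median of 25.3 (18.4 to 39.4) to 4.87 (2.5 to 6.76) CPM in wild-type cells, a larger change than that of any cathepsin among the 53. Of 22 membrane and sorting genes 6 rose and 7 fell in wild-type and 5 rose and 5 fell in Jak2V617F cells, with Laptm4b, a transmembrane protein of late endosomes, falling the most of those named (-1.93 ± 0.20, adjusted p = 3.12e-08 and -1.46 ± 0.20, adjusted p = 3.94e-06). Of 8 further V-ATPase genes 3 rose and 1 fell in wild-type and 5 rose and 1 fell in Jak2V617F cells, Atp6v0a2 upwards (0.64 ± 0.10, adjusted p = 1.22e-05 and 0.39 ± 0.10, adjusted p = 0.00328) and Atp6v1g2 downwards (-1.24 ± 0.17, adjusted p = 1.75e-06 and -0.72 ± 0.17, adjusted p = 0.00155).

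Of 35 further autophagy genes, 5 rose and 16 fell in wild-type cells and 5 rose and 13 fell in Jak2V617F cells. Optn, the receptor for ubiquitinated cargo, stood out with 15.7 to 33.5 (median 20.4) CPM in wild-type vehicle and 67.5 to 148 (median 113) CPM in wild-type pegIFN libraries (2.37 ± 0.21, adjusted p = 9.04e-09). In Jak2V617F cells it went from a median of 22.1 (13.6 to 33.0) to 52.8 (34.7 to 56.4) CPM (1.2 ± 0.21, adjusted p = 9.51e-05), and under pegIFN it was lower in Jak2V617F than in wild-type cells, without overlap (-1.12 ± 0.20, adjusted p = 0.00201). The difference in response was not called (-1.17 ± 0.29, adjusted p = 0.228). Tecpr1, which acts in autophagosome fusion, fell in both (-1.40 ± 0.16, adjusted p = 8.73e-08 and -1.30 ± 0.16, adjusted p = 8.35e-07), as did Rb1cc1, a scaffold of the ULK1 complex (-0.59 ± 0.07, adjusted p = 2.72e-07 and -0.46 ± 0.07, adjusted p = 2.23e-05).

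Of 25 genes of nutrient sensing at the lysosome, 10 rose and 5 fell in wild-type and 9 rose and 5 fell in Jak2V617F cells. The sestrins, proteins that restrain mTORC1, did not move together. Sesn3 had 16.2 to 24.8 (median 21.6) CPM in wild-type vehicle and 6.85 to 10.2 (median 8.82) CPM in wild-type pegIFN libraries (-1.30 ± 0.12, adjusted p = 5.62e-09), and it fell in Jak2V617F cells too (-1.10 ± 0.12, adjusted p = 2.29e-07). Sesn1 fell in both (-0.79 ± 0.07, adjusted p = 6.76e-09 and -0.55 ± 0.07, adjusted p = 3.96e-06). Sesn2 rose in Jak2V617F cells from a median of 14.7 (12.7 to 18) to 25.9 (23.9 to 35.5) CPM (0.82 ± 0.12, adjusted p = 5.8e-06) and was not called in wild-type cells (0.22 ± 0.11, adjusted p = 0.104).

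Between genotypes, where 12.7% of all genes were called under vehicle and 8.59% under pegIFN, the calls in these further lists were 1 higher and 4 lower of 29 enzymes, none higher and 1 lower of 22 membrane genes, none of 8 pump genes, 1 higher and 5 lower of 35 autophagy genes and 3 higher and 1 lower of 25 nutrient-sensing genes under vehicle. Under pegIFN the counts were 2 higher and 2 lower, 1 higher and none lower, 3 higher and none lower, 2 higher and 2 lower, and 5 higher and 2 lower in the same order. The largest of these differences in both treatments was that of Ctse, an endosomal aspartic protease, with 98.8 to 238 (median 211) CPM in wild-type and 20.6 to 47.9 (median 31.2) CPM in Jak2V617F vehicle libraries (-2.64 ± 0.30, adjusted p = 5.71e-05). Under pegIFN it had 262 to 434 (median 350.1) and 24.6 to 97.5 (median 34.7) CPM (-3.01 ± 0.30, adjusted p = 4.33e-06), and no Jak2V617F library reached the lowest wild-type library in either treatment. Lamtor3, a subunit of the Ragulator scaffold that anchors Rag GTPases, was higher in Jak2V617F cells in both treatments (0.25 ± 0.07, adjusted p = 0.0289 and 0.33 ± 0.07, adjusted p = 0.00869), as was the galactosidase gene Gla (0.43 ± 0.11, adjusted p = 0.0114 and 0.39 ± 0.11, adjusted p = 0.0238), which like Tfe3 is X-linked.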

How the data were processed

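The deposited values are expected counts of genes, on GRCm38. The submitters' processing notes name RSEM 1.2.30 beside STAR 2.5.2a and cutadapt 1.11, and annotation release and strand are not given in the sources used here. RSEM divides shared reads among genes (16.8% of values were not whole), and values were rounded. The 24 libraries held 24.6 to 39.7 M counts.

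edgeR 4.0.16 (R 4.3.3) was run with filterByExpr (minimum count 10; 15879 of 38215 genes), TMM factors, 4 group means, robust quasi-likelihood F-tests, and p-values adjusted by Benjamini-Hochberg over the genes tested. Genes were called at an adjusted p under 0.05. CPM use TMM-scaled totals, and TPM use exon lengths of GENCODE mouse release 21. The script was tested on simulated data. Libraries of a mouse, by the number in the library name, pair the genotypes: the labels put both genotypes in each recipient, and the 12 pairs correlated at 0.119 to 0.416 after group means were removed. The labels do not state that mice are independent, so p-values measure the spread between these samples.

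The 53 genes, 6 role groups, 5 further lists and marker lists were chosen with earlier results of these data known. Values are given for the 3 genes of each role group with the smallest p in a comparison, for Tfe3, Tfeb, Mitf, Flcn and Rragd, and for up to 3 called genes of each further list. Others named were picked after their values were seen. Alternatives were DESeq2 1.42.0, other scaling factors and filters, fewer libraries and blocks for mouse or replicate number; a block without both mice was added after seeing the data.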

Additional observations from a re-analysis of the deposited data

Results flagged for a closer look

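In 14 of 212 sets of 6 libraries, 1 library lay far from the other five, by a gap of more than 0.625 of the whole range. Chance flags about 1 in 20 sets. In wild-type vehicle replicate 3, Atg16l1 was at 50.6 CPM (others 46.8 to 47.9), Atg7 at 35.5 CPM (others 39.5 to 41.1) and Psap at 343 CPM (others 391 to 412). In wild-type vehicle replicate 2, Ctsc was at 67.7 CPM (others 49.7 to 52.3) and Hexa at 102.0 CPM (others 82.1 to 87.8). Wild-type pegIFN replicate 3 had Glb1 at 66.3 CPM (others 60.4 to 61.5) and Grn at 219.8 CPM (others 178 to 192).

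Jak2V617F vehicle replicate 2 had Atp6v1h at 49.9 CPM (others 42.4 to 45.1) and Mcoln1 at 31.7 CPM (others 34.9 to 36.5), and replicate 4 of that group had Ctsl at 27.1 CPM (others 15.8 to 19.4). Jak2V617F pegIFN replicate 1 had Ctsa at 83.5 CPM (others 90.8 to 92.8) and Gabarap at 111 CPM (others 89.9 to 97.7). Jak2V617F pegIFN replicate 3 had Atg7 at 36.1 CPM (others 30.9 to 32.7) and Cln3 at 38.2 CPM (others 28.4 to 32.0).

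The pegIFN response of 3 genes differed between the genotypes by the test of the difference itself with the mouse as a block: Tfe3 by -0.46, Cd63 by 0.38 and Gabarapl1 by 0.31 on the log2 scale (Jak2V617F minus wild-type). In the edgeR fit without the block none of the 3 was called, and DESeq2 without the block called Tfe3 (-0.47, adjusted p = 0.049).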

How the results depend on the processing

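RLE factors left every call among the 53 genes with pegIFN as it was. Upper-quartile factors gave 7 rather than 12 rises and 24 rather than 20 falls in wild-type cells (Ctsa, Glb1, Gusb and Gabarapl2 added), turned the sign of 7 uncalled values in wild-type and 5 in Jak2V617F cells, 4 between genotypes under vehicle and 5 for the interaction (among the named genes Flcn -0.036 in wild-type and -0.028 in Jak2V617F cells and 0.009 for the interaction, and Tfe3 -0.024 in Jak2V617F cells), moved the median of all genes from -0.01 to -0.10 in wild-type cells, and took the share of higher among called genes from 49.6 to 39.3% there, from 49.3 to 38.8% in Jak2V617F cells and from 66.7 to 54.7% between genotypes under vehicle. Between genotypes under vehicle (1 higher, 5 lower), DESeq2 gave 2 higher, a fit of the 2 groups alone 0 higher and 3 lower, omission of the 2 libraries 3 lower, the mouse block 5 and 9, and the block without both mice 2 and 8. Under pegIFN (2 higher, 4 lower), DESeq2 gave 5 higher, no filter 1 higher, a filter of 1 CPM in 12 libraries 4 higher, omission of the 2 libraries 0 and 2, the mouse block 13 and 7, and the block without both mice 6 and 7. For the interaction (0 and 0), DESeq2 gave 1 lower, the mouse block 2 higher and 1 lower, and the block without both mice 1 higher. The cause of these shifts was not tested. Over all genes, the counts of 1346 higher and 672 lower under vehicle became 1127 lower with DESeq2, 437 lower with no filter, 717 higher and 435 lower with the 2 groups alone, 701 and 298 without the 2 libraries, 2779 and 2165 with the mouse block and 2300 and 1659 without both mice. Those of 661 and 703 under pegIFN became 364 higher with no filter, 238 and 415 without the 2 libraries, 2109 and 1801 with the mouse block and 1231 and 1299 without both mice. For the interaction, DESeq2 called 11 and 35, the block 203 and 325, and the block without both mice 42 and 62. Replicate numbers did not pair mice across treatments (correlations of -0.239 to 0.057), and a replicate block on that number gave 9 higher and 18 lower in wild-type and 10 and 10 in Jak2V617F cells. Without the 2 libraries, Atp6v1a, Atg5 and Atg12 in wild-type and Atp6v1b2, Gabarap and Atg7 in Jak2V617F cells lost their pegIFN call. Rragd had 3 to 44 reads per library, the fewest of the 53 genes, and how depth limits the calls was not tested.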
